A study of Mus musculus with 10 samples.

Results

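The calcium, sodium, HCN and TRP channel genes were examined for binding of estrogen receptor alpha (ERα) in the arcuate and the anteroventral periventricular (AVPV) nuclei of the mouse hypothalamus. The set consisted of all RefSeq protein-coding genes of mm10 whose symbols begin with Cacn, with Scn, Hcn or Trpa, Trpc, Trpm, Trpp or Trpv followed by a digit, which gave 68 of 21774 genes. There were 26 calcium channel genes, 14 sodium channel genes, 4 HCN genes and 24 genes with TRP names. The symbol rule also caught 2 genes that do not encode channels, Trpc4ap and Trpc5os. A gene was counted as bound in a library when its start site was the nearest of 26906 protein-coding start sites to the centre of at least 1 peak, and the count was repeated with peaks within 20 kb of the start site.

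The chromatin came from female C57BL/6 mice that were ovariectomised, received a 2 cm silastic implant with 17β-estradiol at 0.1 mg/mL in oil, and were injected a week later with estradiol benzoate at 0.05 mg/kg. Tissue was taken 28 h after the injection, and all animals had this treatment, so the only contrast is between the nuclei. ChIP-seq, which pulls down a protein with an antibody and reads out the DNA attached to it, was performed for ERα in 4 libraries per nucleus, with 2 pooled input libraries whose data were not analysed here. Chromatin was pooled, and it was not stated if each library had a pool of its own, so SDs and p-values are over libraries and may measure technical spread only. Arcuate lists contained 3251 to 4079 peaks, AVPV lists 2367 to 3347, and all lists together 25982. The number of reads behind each list was not used, and a gene without a peak is not shown to be unbound. Peak lists hold no expression values, so the labelled nuclei could not be checked against marker genes, and whole nuclei contain many cell types.

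Voltage-gated calcium and sodium channels open when a neuron is depolarised, and consist of a pore-forming subunit with auxiliary subunits that set its amount at the membrane and its gating. HCN channels open on hyperpolarisation and drive the membrane back towards threshold, while TRP channels are cation channels opened by lipids, temperature or receptors coupled to phospholipase C. T-type calcium current, HCN current, persistent sodium current and TRPC channels are known contributors to burst firing and excitability in kisspeptin neurons of these nuclei. ERα, once it has bound estradiol, attaches to DNA either directly, at a palindromic estrogen response element, or through other factors, and often far from the genes it regulates.

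The sequences under several of these peaks are shown first, since they are what the receptor could contact. The palindrome searched was AGGTCA, 3 free bases and TGACCT, which reads the same on both strands, and at most 2 mismatches in its 12 fixed bases were allowed within 100 bp of the strongest summit of a region. Regions are peaks of the 8 libraries merged where they shared at least 1 bp. The following stretches from the plus strand of GRCm38.p6 (mm10) carry the best match in capitals with 7 bases on either side. The Cacng2 stretch follows from the rule of at most 1 mismatch in a region with peaks in all 8 libraries or in all 4 of a single nucleus, and the other 4 were added after their values were seen, for the perfect match and for regions with peaks in all 8 libraries.
Cacng2: tgtgccgAGGTCATCTTGCCCTcttatgc
Trpc6: tgtctaaAGGTCACGTTGACCTtagagtg
Cacna1g: ctaggttGGGTCAACCTGCCCTgtttgag
Scn10a: tgggccaTGGTCACCTCGACCTagtctta
Cacna2d3: attgctgAGGTCACAGCGACCCtgctctt

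The Cacng2 stretch lies at chr15:78140228-78140256 and differs from the palindrome by A12C, where positions count from 1 at the left end of the capitals and the base of the palindrome comes first. The Trpc6 stretch at chr9:8443443-8443471 has no mismatch. It was the only perfect match among the regions of the channel genes (1.85% of them, against 2.37% of all other regions). The remaining stretches have 2 mismatches each. They are A1G and A12C for Cacna1g at chr11:94442064-94442092, A1T and T10C for Scn10a at chr9:119716289-119716317, and T10C and T15C for Cacna2d3 at chr14:29798356-29798384. The centres of these 5 matches were 7 to 60 bp from the summits.

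The channel genes had more bound members in every arcuate library than in any AVPV library. The arcuate libraries had 21, 20, 17 and 16 bound channel genes and the AVPV libraries 11, 12, 15 and 15, or 18.5 ± 2.38 against 13.2 ± 2.06 (SD, n = 4 each). This corresponds to 27.2% ± 3.5 and 19.5% ± 3.03 of the 68 genes. Over all protein-coding genes, 13.5% ± 1.04 were bound in an arcuate library and 10.9% ± 1.57 in an AVPV library, and there the libraries of the nuclei overlapped. Of the potassium channel genes, 22.6% ± 4.87 were bound in an arcuate library and 16.8% ± 4.46 in an AVPV library, again with overlap. In whole nuclei, more cells with the receptor and more binding per cell cannot be told apart. The arcuate lists were also longer. When every list was limited to its 2367 peaks with the highest -log10 q, the number in the shortest list, the counts were 18, 16, 12 and 13 in the arcuate and 11, 11, 12 and 13 in the AVPV, and the nuclei overlapped. The share of bound genes that were channel genes was 0.629% ± 0.0531 in the arcuate and 0.559% ± 0.0347 in the AVPV, also with overlap. Within 20 kb of a start site the counts were 11, 10, 7 and 6 against 5, 4, 6 and 5, a smaller set whose nuclei overlapped. No p-value is given for these counts, because the genes were chosen with results of these data known.

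**Figure D1:**
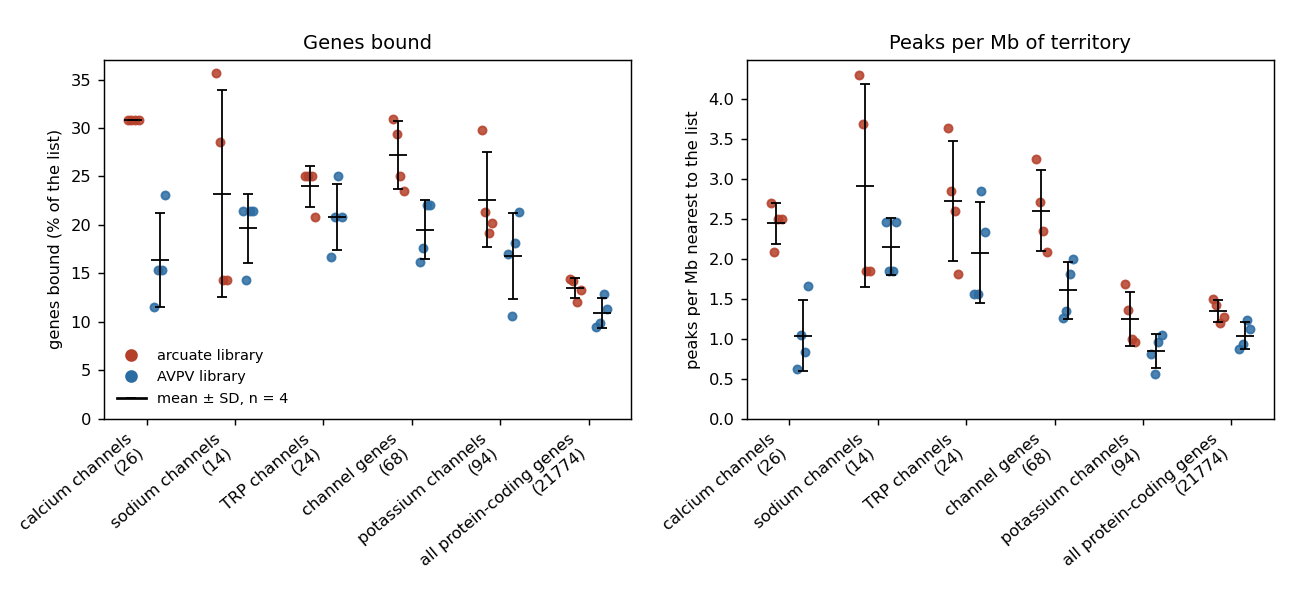
The left panel plots the percent of genes bound in each library and the right panel the peaks per Mb of territory, the bases for which a gene of the list has the nearest start site, for 3 channel families, all channel genes, potassium channel genes and all protein-coding genes (number of genes in brackets). Points are libraries (red arcuate, blue AVPV) and black bars give the mean ± SD of 4 libraries. The calcium channel genes are at 8 bound genes in each arcuate library, above all AVPV libraries. The other families overlap between the nuclei, as do all protein-coding genes (means of 13.5% bound in the arcuate and 10.9% in the AVPV).

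In at least 1 of the 8 libraries 27 of the 68 channel genes were bound (39.7%), beside 25.5% of all protein-coding genes. With the 20 kb limit it was 12 (17.6%), beside 16.9% of all genes, a share near the background. In at least 2 of 4 libraries, 21 channel genes were bound in the arcuate (30.9%; all genes, 14.2%) and 14 in the AVPV (20.6%; all genes, 11.4%). All 14 were among the 21. Within 20 kb these were 11 (16.2%; all genes, 8.58%) and 5 (7.35%; all genes, 7.15%). Of the 27 bound genes, 16 were bound in more arcuate than AVPV libraries (59.3%), against 46.7% of all bound genes, and 3 in more AVPV libraries (11.1%), against 24.7%. Bound in all 8 libraries were 8 channel genes (11.8%; all genes, 4.83%), of which 3 remained within 20 kb (all genes, 3.02%).

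Gene length and the spacing of neighbouring genes were set beside these shares, and their effect was not tested. Channel genes are long, with a median of 68.3 kb against 16.2 kb for all genes, and the median territory for which a channel gene had the nearest start site was 99.5 kb, against 49.1 kb. Among genes with a territory of at least 100 kb, 20 of 34 channel genes were bound (58.8%), against 41.7% of all such genes. Among those with less, it was 7 of 34 (20.6%), against 19.1%. The 27 bound channel genes had a median territory of 163 kb and the 41 unbound ones of 59.1 kb. Per Mb of territory the channel genes had 3.25, 2.71, 2.35 and 2.08 peaks in the arcuate libraries and 1.26, 1.35, 1.81 and 1.99 in the AVPV libraries. All protein-coding genes together had 1.19 to 1.5 and 0.868 to 1.23. Potassium channel genes, whose median territory was 108 kb, had 0.962 to 1.68 and 0.561 to 1.04 peaks per Mb, below the channel genes in the same nucleus. Of 94 potassium channel genes 40 were bound in any library (42.6%), a share close to that of the channel genes, so the lists differed in peaks per Mb more than in genes bound. These differences between lists were not tested.

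**Figure D2:**
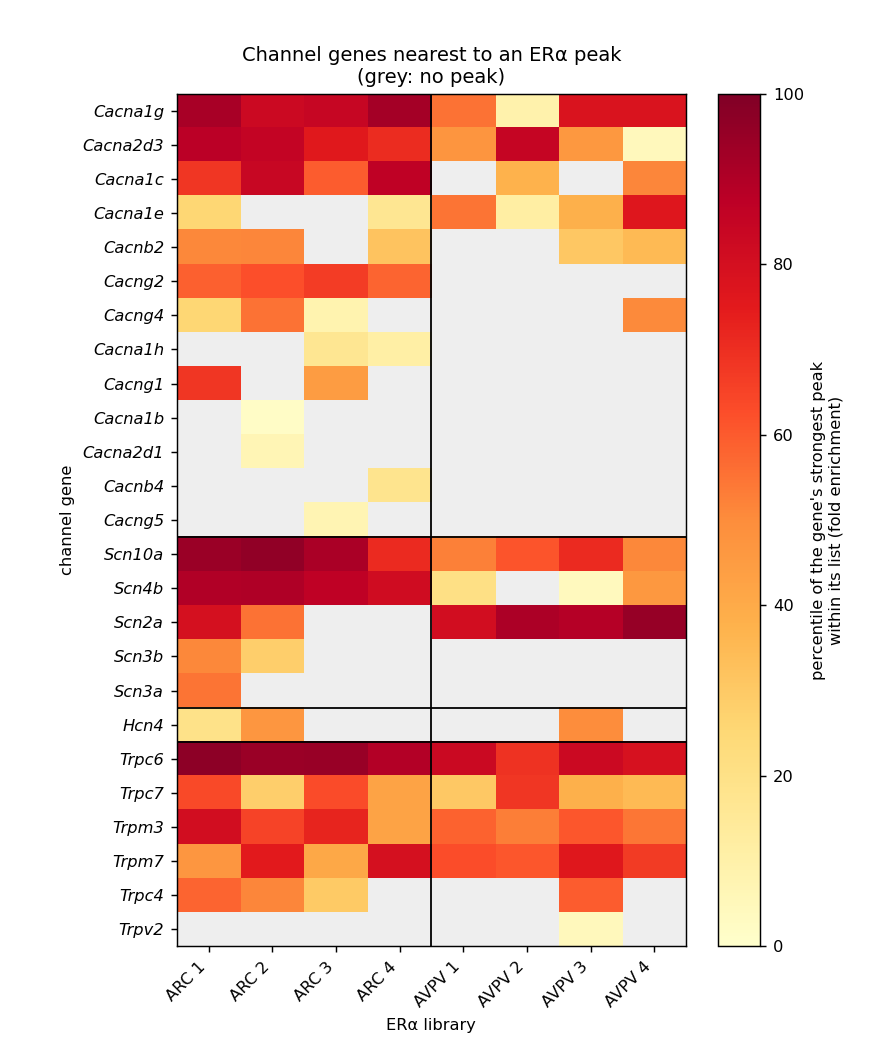
Each row is a bound channel gene (25 of the 27 are drawn) and each column a library (ARC, arcuate). The colour gives the percentile, from 0 to 100 within the library's list, of the fold enrichment of the strongest peak nearest to the gene, grey means no peak, and lines separate the calcium, sodium, HCN and TRP genes. Cacng2 is coloured in the 4 arcuate columns and grey in the 4 AVPV columns, and Cacna1g, Cacna2d3, Scn10a, Trpc6, Trpc7, Trpm3 and Trpm7 are coloured throughout.

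Among the 26 calcium channel genes, 8 were bound in each arcuate library, compared with 3, 4, 4 and 6 in the AVPV libraries, so the nuclei did not overlap. Over all protein-coding genes the mean shares per library were 13.5% in the arcuate and 10.9% in the AVPV, with overlap. The arcuate lists were longer, and this family was not counted with lists of equal length. Bound in any library were 13 of the 26, against 25.5% of all genes. Of these 13, 10 were bound in more arcuate libraries (76.9%, against 46.7% of all bound genes), 1 in more AVPV libraries (7.69%, against 24.7%) and 2 in equal numbers. Among the 10, Cacna1b, Cacna2d1, Cacnb4 and Cacng5 were bound in 1 arcuate library each and no AVPV library. When start sites of all gene types compete, only Cacna1b, Cacna1c, Cacna1e, Cacna1h and Cacng1 of the family stay bound in any library. Within 20 kb only Cacna1h and Cacng4 had a peak, or 2 genes (7.69%), a share below that of all genes (16.9%). The difference of this family from other genes was not tested.

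Among the pore subunits, Cacna1g, which encodes a T-type pore that opens at low voltage, was bound in all 8 libraries. Its region at chr11:94441784-94442368 lies in an intron of the gene, 32.1 kb downstream of the start site. Fold enrichment over the local background was 14.1, 9.53, 10.6 and 13.9 in the arcuate and 6.70, 4.23, 9.24 and 9.70 in the AVPV. Since each list has its own background, libraries were compared by percentile within the list, which was 91.7, 82.8, 84.2 and 92.5 in the arcuate and 55.1, 9.13, 78.0 and 77.9 in the AVPV. Every arcuate library was above every AVPV library, with a difference of means of 32.8 points (exact two-sided permutation test, p = 0.0286, the smallest that 4 against 4 allow; 0.135 after Benjamini-Hochberg adjustment over 1089 regions with peaks in all 8 libraries). AVPV library 2 was far below the others. The other T-type genes were Cacna1h, with a peak in an exon 0.643 kb from the start site in arcuate libraries 3 and 4 only, and Cacna1i, which was not bound.

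Cacna1c, the L-type pore of neurons and heart, had 6 regions, as many as Trpm3, and all were in its own introns. It had 5, 2, 4 and 4 peaks in the arcuate libraries and 0, 2, 0 and 1 in the AVPV libraries. As a gene it was bound in 4 arcuate and 2 AVPV libraries (Fisher's exact test, p = 0.429; adjusted over all genes, 1.00). Its region at chr6:118833255-118833563, 75.4 kb upstream of an internal start site, had a peak in each arcuate library (fold enrichment 4.62, 5.92, 6.51 and 5.41), while the AVPV libraries had none. The Cacna1c region with peaks in the most libraries, at chr6:118724807-118725344, was shared, with 7.44, 9.72, 6.03 and 10.5 in the arcuate and 3.57 and 6.43 in AVPV libraries 2 and 4. The other L-type genes Cacna1d, Cacna1f and Cacna1s were not bound by this rule. Cacna1d does hold a region with peaks in all 8 libraries, but its centre is 0.0220 kb from the start site of Dcp1a and counted for that gene.

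Cacna1e, the R-type pore, went the other way, with peaks in arcuate libraries 1 and 4 and in all 4 AVPV libraries (Fisher's exact test, p = 0.429; adjusted, 1.00). Its strongest peak per library had a fold enrichment of 4.88 and 4.5 in those arcuate libraries and of 6.54, 4.34, 5.32 and 9.36 in the AVPV. The AVPV calls came from 2 regions, one intergenic at 151 kb upstream and one in an intron. Cacna1b, the N-type pore, had a single weak peak in arcuate library 2 with a fold enrichment of 3.17. Cacna1a, the P/Q-type pore, was not bound, although an intron of it held a region with peaks in 4 arcuate libraries and 1 AVPV library that counted for Ier2, 27.7 kb away.

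Of the auxiliary subunits, Cacna2d3, an alpha2delta subunit, was bound in all 8 libraries through an intergenic region 76.5 kb upstream, chr14:29798067-29798622. Its percentiles were 87.7, 85.2, 75.7 and 70.4 in the arcuate and 47.1, 84.5, 46.4 and 4.48 in the AVPV. The nuclei overlapped through AVPV library 2, and the difference of 34.2 points did not pass (exact two-sided permutation test, p = 0.0857; adjusted, 0.248). Another 4 regions in Cacna2d3 introns, 1 of them with peaks in all 8 libraries, had Lrtm1 as the nearest start site and did not count. Cacna2d1 had a single peak in arcuate library 2, and Cacna2d2 and Cacna2d4 were not bound. An intron of Cacna2d4 held a region with peaks in 1 arcuate and 1 AVPV library, but it counted for Lrtm2, 11.4 kb away. Among the cytoplasmic beta subunits, Cacnb2 was bound in 3 arcuate and 2 AVPV libraries and Cacnb4 in arcuate library 4 only. The Cacnb4 peaks were in exons where transcripts of Stam2 and of the long non-coding RNA Gm46741 overlap.

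The gamma subunits and TARPs, the latter of which bring AMPA-type glutamate receptors to the synapse, comprised 8 genes. Of these, 3, 2, 4 and 1 were bound in the arcuate libraries and 0, 0, 0 and 1 in the AVPV libraries, so the libraries touched at 1. In at least 2 of 4 libraries 3 were bound in the arcuate, Cacng1, Cacng2 and Cacng4 (37.5%, against 14.2% of all genes), and 0 in the AVPV (all genes, 11.4%). All 4 genes bound in any library were bound in more arcuate than AVPV libraries (all bound genes, 46.7%), but 3 of them are neighbours, as described below, and the difference was not tested. Cacng2, which encodes stargazin, was the only channel gene bound in all 4 libraries of a nucleus and none of the other (arcuate; all genes, 0.556%), and no channel gene showed the reverse (all genes, 0.124%). Its region at chr15:78140018-78140433 is intergenic, 20.9 kb upstream, and had fold enrichments of 6.72, 6.76, 7.6 and 6.32 in the arcuate libraries. Fisher's exact test gave p = 0.0286, the smallest possible, and 1.00 after adjustment over all genes. By this test 148 of all genes had p under 0.05 before adjustment and 0 after it. No gene could have passed, since adjustment over 21774 genes would need more genes at the smallest p-value than the 5545 bound in any library. The call depends on how genes are assigned. The region is just beyond 20 kb, and when start sites of genes of all types compete, the long non-coding RNA A730060N03Rik is nearer, at 17.3 kb, and Cacng2 is bound in 0 libraries.

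Cacng4 was bound in arcuate libraries 1, 2 and 3 (fold enrichment 4.88, 6.19 and 4.15) and in AVPV library 4 (6.24) (Fisher's exact test, p = 0.486; adjusted, 1.00). Cacng1, a gamma subunit of the skeletal muscle channel, was bound in arcuate libraries 1 and 3, through a region in an intron of Helz. Cacng5 was bound in arcuate library 3 alone, through an intron of Prkca. Cacng1, Cacng4 and Cacng5 are neighbours on chromosome 11, between 107703218 and 107915055, and so are not separate loci.

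Of the 14 sodium channel genes 5 were bound in any library (35.7%, against 25.5% of all genes), and all 5 had a peak within 20 kb, as did 3687 of all 5545 bound genes. The median distance of their 7 regions from a start site was 7.45 kb, compared with 17.8 kb over all regions, 38.3 kb for the 23 calcium channel regions and 49.7 kb for the 20 TRP regions. Of the sodium channel regions, those at 2.79, 7.45 and 10.8 kb belong to Scn10a, so the 7 are not separate loci. All 7 lay within 20 kb, and so did 51.3% of all regions. In the arcuate libraries 5, 4, 2 and 2 were bound and in the AVPV libraries 3, 2, 3 and 3, so the nuclei overlapped.

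Scn10a, a tetrodotoxin-resistant pore best known from sensory neurons, was bound in all 8 libraries. Its intronic region 2.79 kb from the start site, chr9:119715952-119716525, had fold enrichments of 15.9, 18, 13.7 and 7.38 in the arcuate and 6.50, 6.96, 7.89 and 6.38 in the AVPV. The percentiles were 94.2, 96.4, 91.3 and 70.8 against 52.5, 61.1, 70.8 and 50.8. The arcuate was higher by 29.4 points (exact two-sided permutation test, p = 0.0286; adjusted, 0.135), although arcuate library 4 and AVPV library 3 were equal to 3 digits. A further region 7.45 kb upstream had peaks in 7 libraries, with fold enrichments of 5.40 to 6.49 in the arcuate and 5.49 to 6.07 in 3 AVPV libraries.

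Scn2a, the main pore at the axon initial segment of many central neurons, was bound in 2 arcuate and 4 AVPV libraries through an intergenic region 4.39 kb upstream, chr2:65616134-65616618. Fold enrichment was 9.24 and 6.19 in arcuate libraries 1 and 2, and 10.5, 13.9, 13.1 and 18.4 in the AVPV libraries. The percentiles were 79.5 and 55.1 in those arcuate libraries and 80.8, 90.9, 88.8 and 95.1 in the AVPV, all above the arcuate values. As a call per library the difference did not pass (Fisher's exact test, p = 0.429, and 1.00 after adjustment). With 4 against 4 libraries only a split of 4 to 0 could pass before adjustment, and none could after it. The best match to the palindrome there had 4 mismatches.

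Scn4b, a beta subunit linked to resurgent sodium current, was bound in 4 arcuate and 3 AVPV libraries through a region 8.14 kb upstream, chr9:45130296-45130669. The region was annotated as a transcript end. Its centre lies within a transcript of the long non-coding RNA Gm10684, and the region begins just past the end of Scn2b at 45130070. Fold enrichments of this Scn4b region were 12.8, 12.1, 11.4 and 9.02 in the arcuate and 4.86, 3.51 and 6.0 in AVPV libraries 1, 3 and 4. The percentiles were 89.8, 89.9, 86.5 and 81.3 against 20.5, 3.94 and 46.3, so all arcuate percentiles were higher. Scn3b, another beta subunit, was bound in arcuate libraries 1 and 2, and Scn3a, a pore mainly of the developing brain, in arcuate library 1. Scn1a and Scn8a, pores of many central neurons, were not bound, although a region at the transcript end of Scn8a had a peak in 1 AVPV library that counted for Fignl2, 8.51 kb away. The beta subunit Scn2b was not bound either by this rule, since the region just past its end counted for Scn4b.

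Hcn4, known as the pacemaker channel of the heart, was bound in arcuate libraries 1 and 2 near its start site and in AVPV library 3 at 29.0 kb upstream, so no region was shared.

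Of the 24 genes with TRP names 7 were bound in any library (29.2%), a share near the 25.5% of all genes. In the arcuate libraries 6, 6, 6 and 5 were bound and in the AVPV libraries 4, 5, 6 and 5. TRPC channels, which open downstream of phospholipase C, accounted for 4 of them (of 7 genes). Trpc6 had the highest mean percentile in the arcuate among the 7 channel regions with peaks in all 8 libraries. Its region at chr9:8700564-8701005 lies 157 kb downstream of the start site, beyond the gene and in an intron of the long non-coding RNA Gm32014. Fold enrichment there was 20.5, 15.2, 16.8 and 11.7 in the arcuate and 11.2, 8.02, 10.3 and 9.95 in the AVPV. The percentiles of 96.9, 94.5, 94.6 and 89.3 were all above those of 83.0, 68.9, 82.6 and 79.0, by 15.5 points between the means (exact two-sided permutation test, p = 0.0286; adjusted, 0.135). The Trpc6 region with the perfect element, 101 kb upstream at chr9:8443202-8443709, had fold enrichments of 11.0, 12.4, 7.82 and 9.02 in the arcuate. In the AVPV it had none in library 1 and 6.65, 4.83 and 5.19 in libraries 2, 3 and 4. Its percentiles were 85.8, 90.3, 69.9 and 81.3 in the arcuate, all above the 57.3, 25.8 and 29.9 of those AVPV libraries. Another 2 Trpc6 regions, 151 and 170 kb downstream, had peaks in 3 arcuate libraries each and none in the AVPV.

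Trpc7, a close relative of Trpc6, was also bound in all 8 libraries, but no single region had a peak in all of them. The region in its intron 36.4 kb downstream had peaks in 4 arcuate libraries and 1 AVPV library, and the one 194 kb upstream in 3 of each. Trpc4 was bound 1.31 kb upstream in arcuate libraries 1, 2 and 3 and AVPV library 3, with fold enrichments of 6.67, 5.92 and 5.21 against 6.57.

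The bound TRPM genes were Trpm3 and Trpm7, each in all 8 libraries. Trpm3, a heat- and neurosteroid-sensitive channel, had 6 regions. The one shared by all libraries lies in an intron at chr19:22905313-22905681, 10.5 kb upstream of an internal start site. Its percentiles were 80.5, 65.1, 72.5 and 42.5 in the arcuate and 19.6, 53.1, 49.8 and 23.2 in the AVPV, where arcuate library 4 was within the AVPV range (28.7 points; exact two-sided permutation test, p = 0.0857; adjusted, 0.248). An intronic Trpm3 region 57.9 kb downstream had peaks in 3 AVPV libraries and no arcuate library.

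Trpm7, which joins a magnesium-permeable channel to a kinase domain, was the only channel gene with a promoter peak in all 8 libraries. The region chr2:126876034-126876584 is centred 0.0480 kb upstream of the start site. Fold enrichment was 5.90, 8.07, 5.71 and 8.66 in the arcuate and 7.32, 6.94, 8.76 and 7.91 in the AVPV. The percentiles differed by -6.09 points (arcuate minus AVPV), less than the SD of either nucleus (p = 0.514 by the exact permutation test; adjusted, 0.683). The best match to the palindrome near the summit had 5 mismatches. The RefSeq sequence of the 250 bases before the start site (GRCm38.p6, chr2:126876262-126876511, minus strand) lies under the peak. It is shown with its CG pairs in capitals.
Trpm7: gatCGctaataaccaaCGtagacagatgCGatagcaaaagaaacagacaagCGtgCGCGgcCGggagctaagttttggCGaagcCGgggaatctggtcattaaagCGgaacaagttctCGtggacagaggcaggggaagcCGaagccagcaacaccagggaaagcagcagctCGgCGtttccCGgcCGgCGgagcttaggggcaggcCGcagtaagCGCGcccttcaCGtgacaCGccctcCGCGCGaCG
It has 26 CG pairs and a G+C content of 60.4%. The median over 32851 promoters of the RefSeq table was 6 CG pairs and 52.4% in the same 250 bases, and 9.59% of them held at least as many CG pairs.

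Of the remaining TRP genes, Trpv2 was bound in AVPV library 3 only, with a fold enrichment of 3.61. That region lies 27.1 kb from the Trpv2 start site, in the promoter of 2410006H16Rik, Snord49a and Snord49b. Trpv1, Trpv3 to Trpv6, Trpm1, Trpm2, Trpm4 to Trpm6, Trpm8 and Trpa1 were not bound in any library, and neither were Trpc4ap and Trpc5os. Several of these are known mainly from sensory, epithelial or retinal cells. The unbound calcium channel genes not yet named were Cacnb1, Cacnb3, Cacng3, Cacng6, Cacng7 and Cacng8, and unbound sodium pores beside Scn1a and Scn8a included Scn4a, Scn7a, Scn9a and Scn11a.

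**Figure D3:**
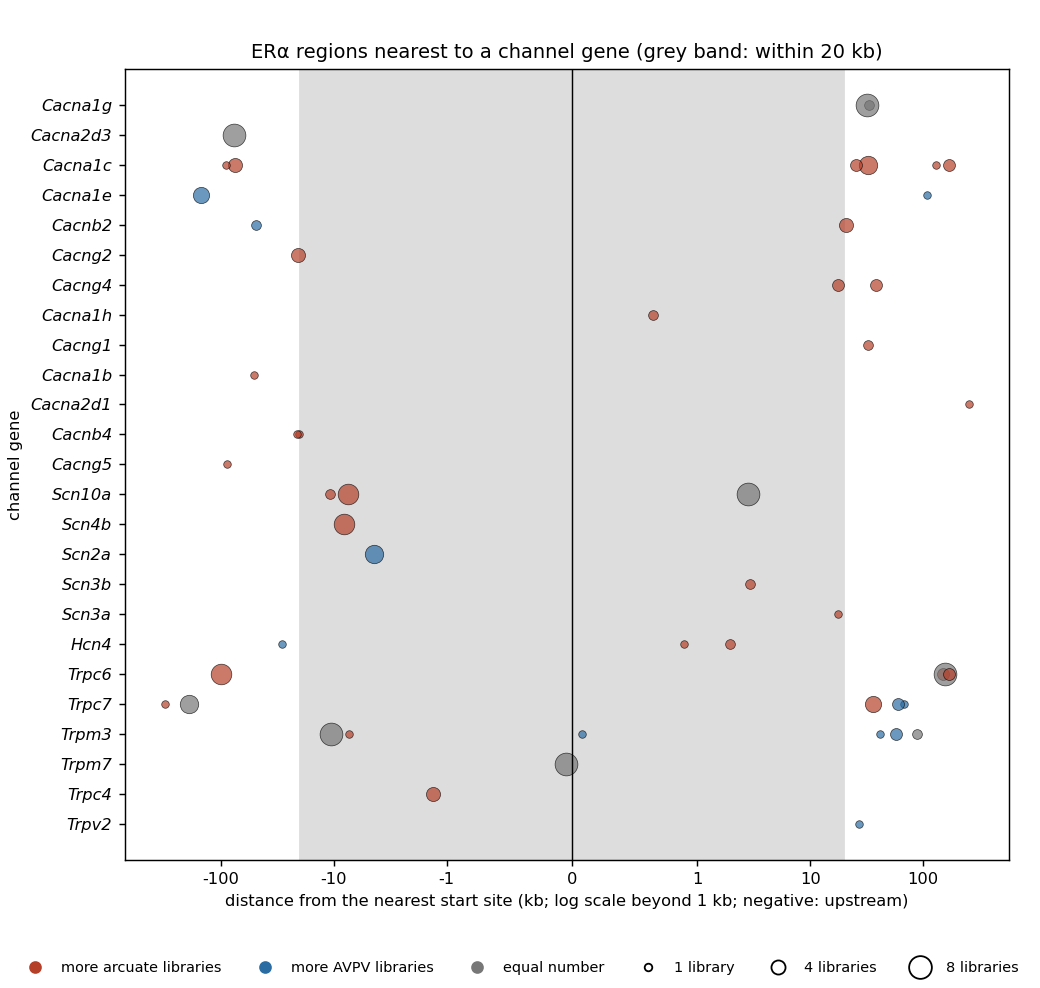
Each point is a region nearest to one of 25 bound channel genes, placed by its distance from the start site in kb (logarithmic beyond 1 kb, negative values upstream). Point size grows with the number of libraries with a peak, and colour tells whether more arcuate (red) or AVPV (blue) libraries had it. All 7 sodium channel regions lie within the grey band of 20 kb, and 2 of the 23 calcium channel regions do.

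The 186 channel peaks formed 54 of the 8072 regions. Introns held 31 of them (57.4%, against 32.8% of all other regions), intergenic sequence 14 (25.9%, against 32.3%), exons 5 and promoters 3 (5.56%, against 25.4%). Of the 3 promoter regions, the one nearest to Trpv2 is in a promoter of other genes. The centre of the channel regions lay in a transcript of the same gene in 29, in one of another gene only in 9 and in none in 16. The median distance of the 54 regions from a start site was 32.8 kb, against 17.5 kb for all other regions. Potassium channel regions shared this pattern, with 60.8% in introns, 6.76% in promoters and a median distance of 49.6 kb. In the other direction, 12 regions lay within a channel gene but nearer to the start site of another gene, and were not counted. Of the 54 regions, 29 had a gene of another type, mostly a long non-coding RNA, as the nearest start site. Those of Cacna1g, Cacna2d3 and Scn4b were among them, and when such genes compete 16 channel genes are bound in any library and 4 in all 8, among them Scn10a, Trpm3 and Trpm7.

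A peak in each arcuate library but in none of the AVPV was found in 2 channel regions, those of Cacng2 and Cacna1c described above (all regions, 2.13%). The reverse was found in 0 (all regions, 0.818%). Regions with peaks in all 8 libraries numbered 7 (13%; all regions, 13.5%), so this share was near the background. Of these 7, those of Cacna1g, Scn10a and Trpc6 had higher percentiles in every arcuate than in every AVPV library, a pattern shown by 14.5% of the 1089 regions with peaks in all 8 libraries. None showed the reverse, which 6.70% of those regions did. The mean percentile was higher in the arcuate in 5 of the 7 and in 59.3% of the 1089. The median difference was 28.7 points over the 7 and 1.93 over the 1089. By the exact permutation test 231 of the 1089 regions had p under 0.05 before adjustment and 0 after it.

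**Figure D4:**
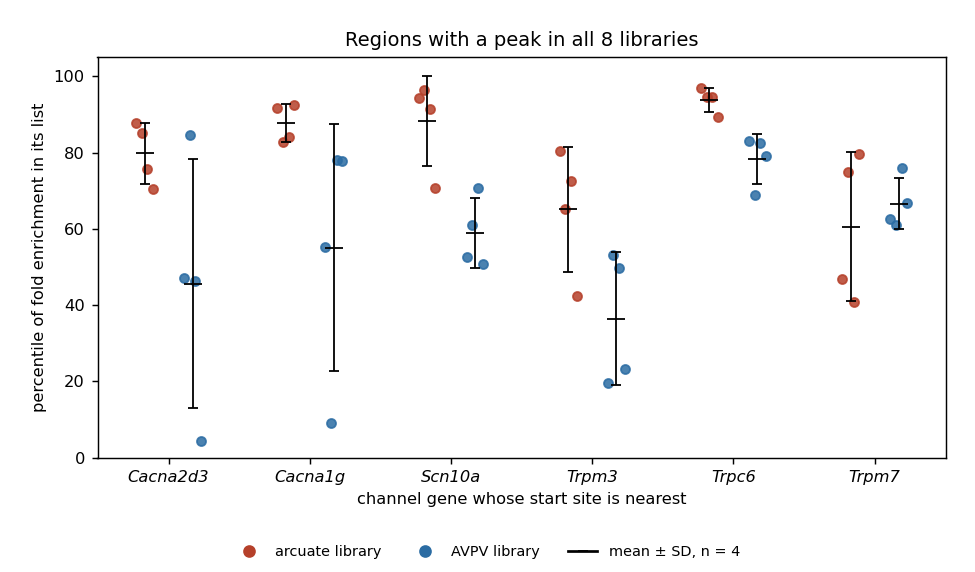
The percentile of fold enrichment within its list is plotted for 6 of the 7 channel regions with a peak in all 8 libraries, by the gene with the nearest start site. Points are libraries (red arcuate, blue AVPV), and black bars the mean ± SD of 4 libraries. The arcuate points of Cacna1g, Scn10a and Trpc6 lie above their AVPV points, with the lowest arcuate and highest AVPV values of Scn10a both at 70.8, while those of Trpm7 overlap.

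A response element with at most 2 mismatches was present in 22 of the 54 channel regions (40.7%, 95% Wilson interval 28.7 to 54.0, which covers counting error only). Of all other regions 28.4% had one. In windows of the same length moved by 5 kb the shares were 3.70% and 1.5%. Outside promoters, which few channel regions overlap, the shares were 43.1% and 37.0%, so the lists were closer there. With at most 1 mismatch the shares were 24.1% of the channel regions and 11.6% of all other regions, and outside promoters 25.5% and 15.3%. Of the 74 potassium channel regions 37.8% had an element with at most 2 mismatches and 17.6% one with at most 1. By family, 9 of 23 calcium, 4 of 7 sodium and 6 of 20 TRP regions had an element. Among the regions with peaks in all 8 libraries, those of Trpc6 (157 kb downstream), Trpm3 and Trpm7 had none with at most 2 mismatches. A match is a description of the letters in the window and does not show that the receptor contacts it.

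Of 37 related genes, comprising other cation channels and partners of the channels, 12 were bound in any library (32.4%, against 25.5% of all genes). In the arcuate libraries 7, 7, 4 and 5 were bound and in the AVPV libraries 4, 3, 6 and 4, with overlap. Cnga3, a cyclic nucleotide-gated channel, was bound in each arcuate library and never in the AVPV. Ryr3, a calcium release channel of the endoplasmic reticulum, was bound in each AVPV library and never in the arcuate. Fisher's exact test gave p = 0.0286 for each, and no gene could pass after adjustment over all genes. Fgf14, an intracellular partner of sodium channels, and Itpr1, an IP3 receptor, were bound in 3 arcuate libraries and no AVPV library, and Fgf12 and Itpr2 in all 8. The genes that went towards the AVPV, namely Ryr3, Ryr2, Stim2 and Catsper2, numbered 4 of the 12 bound (33.3%, against 24.7% of all bound genes), and those towards the arcuate 6 of the 12 (all bound genes, 46.7%).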

How the data were processed

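ERα ChIP-seq peak lists of 4 arcuate and 4 AVPV libraries were used. The authors aligned 75-nt single-end reads to mm10 and called peaks in each library, and the submitters' processing notes name Bowtie2 2.5.0, MACS2 2.2.7.1 and deepTools 3.5. Use of the input libraries in calling was not stated. The deposited lists hold for each peak a score, which was not used, the fold enrichment, a ratio over local background, and the -log10 of the p-value and q-value. The deposited summit offset was used to place summits. Fold enrichments are given as deposited, and libraries were set against each other by percentiles of fold enrichment within a list.

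Samples were grouped by the nucleus in their labels. No peak was identical between libraries. Start sites of curated RefSeq transcripts of protein-coding genes of GRCm38.p6 were used, or of predicted transcripts where a gene had no curated one, and a promoter spanned 1 kb before and 100 bp after a start site. Genes were compared by Fisher's exact test (two-sided) on libraries with and without the gene bound, adjusted over 21774 genes, and regions by an exact two-sided permutation test of percentiles. Named genes were those bound in at least 6 libraries or with at least 3 libraries of difference between the nuclei, and those of each subfamily with the most libraries, and others were named to account for the members. Values of 4 members are not reported here by name, although they enter the counts. Members and lists were chosen with earlier results of these data known. Alternatives covered start sites, thresholds, list length, distance limits, assignment to genes, single libraries left out and a replicate block. The scripts were tested on simulated data. Python 3.11.15, numpy 2.4.6, scipy 1.17.1, pandas 2.3.3, pysam 0.24.0 and matplotlib 3.10.9 were used.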

Additional observations from a re-analysis of the deposited data

Results flagged for a closer look

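In 34 groups of 4 libraries tested, 1 held a value far from the others by Dixon's ratio of the gap to the range, and chance flags about 1 group in 20. The share of peaks nearest to a channel gene was 0.719% in AVPV library 4, against 0.590% to 0.598% in the other AVPV libraries (ratio 0.938).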

How the results depend on the processing

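The arcuate exceeded the AVPV by 5.25 channel genes per library. With lists of equal length this was 3.0, and when start sites of all gene types compete 3.25. The difference in the share of bound genes rose from 0.0709 to 0.148 percentage points with lists of equal length, and to 0.134 with full lists within 20 kb. Genes bound in at least 2 of 4 libraries fell to 11 (arcuate) and 5 (AVPV) within 20 kb, to 14 (arcuate) and 9 (AVPV) with all gene types competing, and to 12 in the arcuate when all 4 libraries were needed. The count of genes bound in all 4 libraries of a nucleus and none of the other, 1 as reported, was 0 with competing genes or within 20 kb. It was 2 at -log10 q of at least 5 or with equal lists. Cacna1e was the added gene with equal lists only (-4, arcuate minus AVPV libraries), and at -log10 q of at least 5 it had -2. Leaving out each library in turn gave differences of 4.42 to 6.08 genes, 2.67 to 4.33 within 20 kb and 0.0569 to 0.0969 points of share, counts of 16 to 21 (arcuate) and 11 to 14 (AVPV), and 1 gene of a single nucleus throughout. The counts still required 2 libraries, also in the nucleus with 1 left out, which is a stricter rule there than 2 of 4. Deviations of same-numbered libraries had correlations from -0.209 to 0.0492, and those of other pairs from -0.216 to 0.238. These values cannot settle whether the numbers pair the libraries, which was not stated. With a replicate block the mean difference is 5.25 genes by construction, and the SD of the 4 paired differences was 4.43. It gave 0 genes under 0.05 by an exact McNemar test, which with 4 pairs cannot go below 0.125. With fold enrichment above 5, 4 channel regions had peaks in all 8 libraries. Response elements were present in 24.1% of regions with at most 1 mismatch and 1.85% with none (all other regions, 11.6% and 2.37%). Counting peaks within a gene for it, an alternative chosen after seeing the data, gave a difference of 5.75 genes. The causes were not tested, and no result reversed in direction under the alternatives run.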
